A study of Mus musculus with 17 samples.

Results

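Bile acids are made from cholesterol in hepatocytes, and the 10 genes described here carry the main steps of their synthesis, uptake, export and feedback control. They are Cyp7a1, Cyp7b1, Cyp8b1, Cyp27a1, Slc10a1, Abcb11, Nr1h4, Nr0b2, Slc51a and Slc51b, chosen by name for their known roles and read from the rows that carry these symbols. All 10 were listed among 19151 genes under the high-fat diet (HFD) and among 24233 genes under the Western-type diet (WD), which is high in fat and cholesterol. A filter on low counts kept 8 of the 10 under HFD, where Slc51a and Slc51b were left out, and 10 of 10 under WD.

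RNA-seq was performed on livers of WT mice and of liver-specific NgBR knockout mice (N-LKO), and on tumors of N-LKO mice, all in the C57BL6 background. N-LKO mice carry loxP-flanked alleles of NgBR, the gene Nus1, and Cre driven by the albumin promoter, so the deletion is meant for hepatocytes and other liver cells keep the gene. After a chow period the mice ate HFD for 16 weeks (WT liver, n = 4; N-LKO liver, n = 4) or WD for 16 weeks (WT liver, N-LKO liver and N-LKO tumor, n = 3 each). Each library is labelled a separate biological replicate, and whether a tumor came from the same animal as a sequenced liver is not given in the sources used here. Total counts ran from 9096110 to 12215784 under HFD and from 15494731 to 20200618 under WD. Nus1 was lower in every N-LKO library than in every WT library of its diet, at 82.4 to 96.0 CPM (counts scaled to library size) against 29.3 to 37.9 under HFD, and at 88.1 to 98.8 in WT livers, 41.6 to 51.1 in N-LKO livers and 28.9 to 43.9 in tumors under WD. The hepatocyte marker genes Alb, Ttr, Apoa1, Serpina1c and Hnf4a summed to 30119 CPM or more in every library, tumors included, and the sixth of that list, Tf, is not analysed here.

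In the classic route of synthesis, Cyp7a1 adds the committing hydroxyl group to cholesterol and Cyp8b1 then steers the product toward cholic acid. In the alternative route Cyp27a1, a mitochondrial enzyme, makes oxysterols that Cyp7b1 hydroxylates further. Slc10a1 (NTCP) takes bile acids up from portal blood and Abcb11 (BSEP) pumps them into bile, while the paired subunits Slc51a and Slc51b form the basolateral exporter OST, which is abundant in ileum and scarce in mouse hepatocytes. The receptor Nr1h4 (FXR) senses bile acids, induces Nr0b2 (SHP), Abcb11 and both OST subunits, and through Nr0b2 lowers Cyp7a1 and Cyp8b1.

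The stretches before the annotated gene starts of 4 members are given because the tumor comparisons below set these genes apart from each other: both OST subunits, the canalicular pump and Cyp8b1. They come from RefSeq on GRCm38.p6, all from the minus strand, and the RefSeq table held promoter windows for 8 of the 10 members. Slc51b is read from chr9:65422774-65423023, Slc51a from chr16:32487880-32488129, Abcb11 from chr2:69342617-69342866 and Cyp8b1 from chr9:121916306-121916555. Capitals mark the nuclear receptor core AGGTCA on either strand, which reads TGACCT when it lies on the other strand.
Slc51b: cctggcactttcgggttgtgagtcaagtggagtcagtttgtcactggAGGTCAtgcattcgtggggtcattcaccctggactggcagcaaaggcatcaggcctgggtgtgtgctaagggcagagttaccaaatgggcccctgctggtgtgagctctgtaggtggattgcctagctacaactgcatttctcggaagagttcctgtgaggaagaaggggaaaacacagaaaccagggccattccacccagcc
Slc51a: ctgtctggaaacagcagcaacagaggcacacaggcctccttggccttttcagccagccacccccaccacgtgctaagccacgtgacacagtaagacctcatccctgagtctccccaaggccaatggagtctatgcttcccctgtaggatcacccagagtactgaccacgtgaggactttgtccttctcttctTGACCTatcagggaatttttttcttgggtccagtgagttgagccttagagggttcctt
Abcb11: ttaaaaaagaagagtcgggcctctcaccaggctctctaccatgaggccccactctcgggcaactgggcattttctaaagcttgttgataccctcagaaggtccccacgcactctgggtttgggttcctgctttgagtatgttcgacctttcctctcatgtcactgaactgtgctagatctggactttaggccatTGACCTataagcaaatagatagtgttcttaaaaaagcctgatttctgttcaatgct
Cyp8b1: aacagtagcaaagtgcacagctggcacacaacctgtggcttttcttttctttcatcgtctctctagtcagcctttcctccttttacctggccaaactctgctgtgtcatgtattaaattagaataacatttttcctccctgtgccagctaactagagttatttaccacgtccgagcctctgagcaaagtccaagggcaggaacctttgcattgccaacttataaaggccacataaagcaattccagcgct
The core lay 203 bases before the start of Slc51b, 58 before that of Slc51a and 56 before that of Abcb11, and it was not found before Cyp8b1. It was also found 214 bases before Nr1h4 and 87 before the second start of Slc10a1. Of all 32851 windows, 16.3% held it, and a match says nothing of binding. The longer forms CAAGGTCA and GTCANTGAC were searched on both strands, were in no member's window, and were in 1.56% and 0.387% of all windows.

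Levels per length differed widely among the genes. In WT livers under HFD, Slc10a1 stood highest at 242 ± 29.5 RPKM (CPM per kilobase of merged exon length; SD, n = 4), followed by Cyp8b1 at 198 ± 36.0, and the libraries of these neighbours overlapped. Cyp27a1 at 141 ± 8.36 lay below Cyp8b1 without overlap. From Cyp27a1 down, each gene overlapped with the next in the order Cyp7b1 (115 ± 41.4), Abcb11 (69.1 ± 8.33), Nr1h4 (54.97 ± 8.67), Cyp7a1 (33.4 ± 19.9) and Nr0b2 (11.3 ± 6.19). The OST subunits were far below, Slc51b at 0.287 ± 0.112 RPKM and Slc51a at 0.193 ± 0.0234. Under WD, Cyp8b1 had the highest mean in WT livers (203.2 ± 61.1 RPKM, n = 3), overlapping with Slc10a1 (155.8 ± 29.1). Cyp8b1 also had the highest mean in N-LKO livers under WD, overlapping with Cyp27a1. In tumors, also under WD, the order was another one. Slc10a1 (83.1 ± 45.6 RPKM, n = 3), Abcb11 (80.2 ± 19.7) and Cyp27a1 (77.8 ± 30.8) overlapped at the top, and Cyp8b1 came next at 42.4 ± 30.3. Slc51b at 7.35 ± 1.38 overlapped with Cyp7a1 at 9.39 ± 8.38 in tumors. Tumors differ from the HFD livers in diet, genotype and count table as well as tissue.

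**Figure D1:**
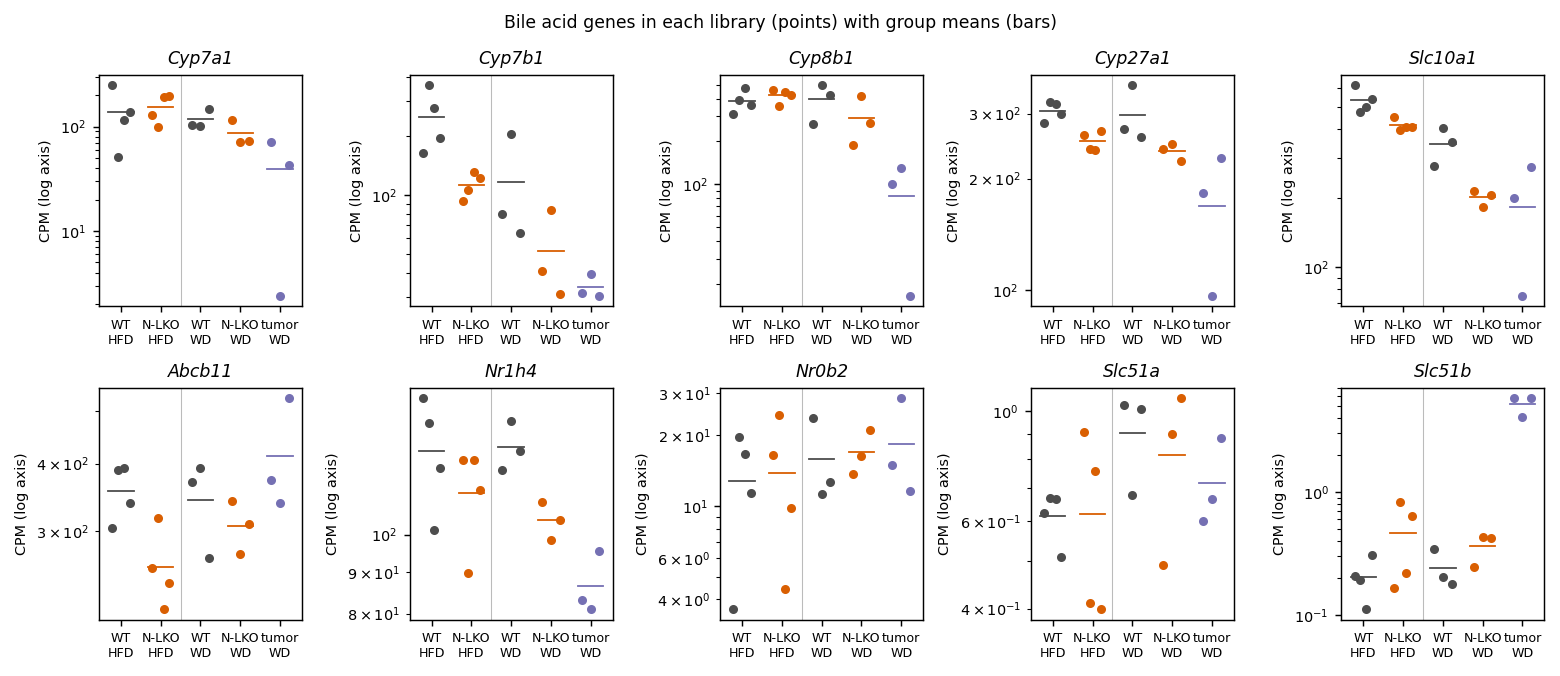
Level of each of the 10 genes in CPM (log axis, own range per panel) in all 17 libraries, with points for libraries, in label order within a group, and bars for group means. Slc51b in tumors (4.08 to 5.78 CPM) lies above every liver, while Cyp7b1 is lower in every N-LKO liver (92.6 to 130 CPM) than in every WT liver (162.9 to 363 CPM) under HFD.

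Spread between replicates was uneven too. Among genes with a mean of at least 5 CPM, Cyp7a1 had a coefficient of variation of 59.5% in WT livers under HFD and Nr0b2 one of 54.8%, against a median over genes of 11.2%. Cyp27a1 varied by 5.94% in the same livers. Both Cyp7a1 and Nr0b2 follow the time of day and feeding in mouse liver, and the hour at which the tissue was taken is not given in the sources used here.

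The genotype comparison under HFD asked whether loss of NgBR moved these genes in fatty liver. Of the 8 genes tested 1 passed, Cyp7b1, the oxysterol hydroxylase of the alternative route. It stood at 162.9, 363, 277 and 195 CPM in WT livers and at 92.6, 106, 130 and 122 CPM in N-LKO livers. No N-LKO liver reached the lowest WT liver. The log2 fold change was −1.15 (SE 0.215) with an edgeR quasi-likelihood adjusted p of 0.0170, and 2.29% of the 13460 genes tested were called lower in this comparison. The call was lost without N-LKO replicate 1 (log2 fold change −1.06, adjusted p 0.0559).

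The partner of Cyp7b1 in that route, Cyp27a1, stood at 283, 322, 319 and 299 CPM in WT and at 263, 240, 239 and 269 CPM in N-LKO livers. The groups did not overlap, as was true in the lower direction for 3 of the 8 genes and for 7.4% of all genes, but the difference was small and did not pass (log2 fold change −0.27, SE 0.0815, edgeR adjusted p 0.0745). Cyp7a1 ranged over 51.0, 116.3, 140 and 250 CPM in WT and 99.5, 130, 193 and 195 CPM in N-LKO livers, which overlapped (log2 fold change 0.15, SE 0.370, edgeR adjusted p 0.848). Cyp8b1 stood at 311, 394, 479 and 363 CPM in WT and at 463, 356, 446 and 422 CPM in N-LKO livers and overlapped as well (0.13, SE 0.131, adjusted p 0.608). Neither difference in the classic route was larger than the spread between livers.

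Both transporters lay lower in N-LKO livers under HFD without passing. Slc10a1, the uptake carrier, stood at 620, 474, 496 and 540 CPM in WT and at 450, 396, 408 and 409 CPM in N-LKO livers. These did not overlap (log2 fold change −0.36, SE 0.0991, edgeR adjusted p 0.0624). Abcb11, the export pump, stood at 303, 389, 393 and 338 CPM in WT and at 257, 317, 215 and 240 CPM in N-LKO livers, where replicate 2 reached into the WT range (−0.47, SE 0.127, adjusted p 0.0577). The DESeq2 Wald test called Cyp27a1, Slc10a1 and Abcb11 lower with adjusted p of 0.0271, 0.0173 and 0.0149. It called 7.43% of all genes in either direction, against 4.84% in the main fit. A correction for transcript length and GC content called Slc10a1 (−0.44, adjusted p 0.0429), beside 1.93% of all genes. Of the 9 alternative settings, 8 did not call Cyp27a1 or Abcb11, and 7 did not call Slc10a1.

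The regulators did not pass under HFD. Nr1h4 stood at 147, 137, 101 and 121 CPM in WT and at 124, 89.7, 124 and 113 CPM in N-LKO livers (log2 fold change −0.17, SE 0.130, edgeR adjusted p 0.472). Nr0b2 spanned 3.64 to 19.7 CPM in WT livers and 4.45 to 24.3 CPM in those of N-LKO mice (0.12, SE 0.482, adjusted p 0.914, and −0.01 after the length and GC correction). Slc51a was at 0.508 to 0.668 CPM in WT and 0.399 to 0.909 CPM in N-LKO livers. Slc51b had 2, 2, 1 and 3 counts in WT and 2, 10, 2 and 8 counts in N-LKO livers, a ratio of pooled counts of 2.33 with an exact 95% interval of 0.998 to 6.05 that covers counting error only.

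**Figure D2:**
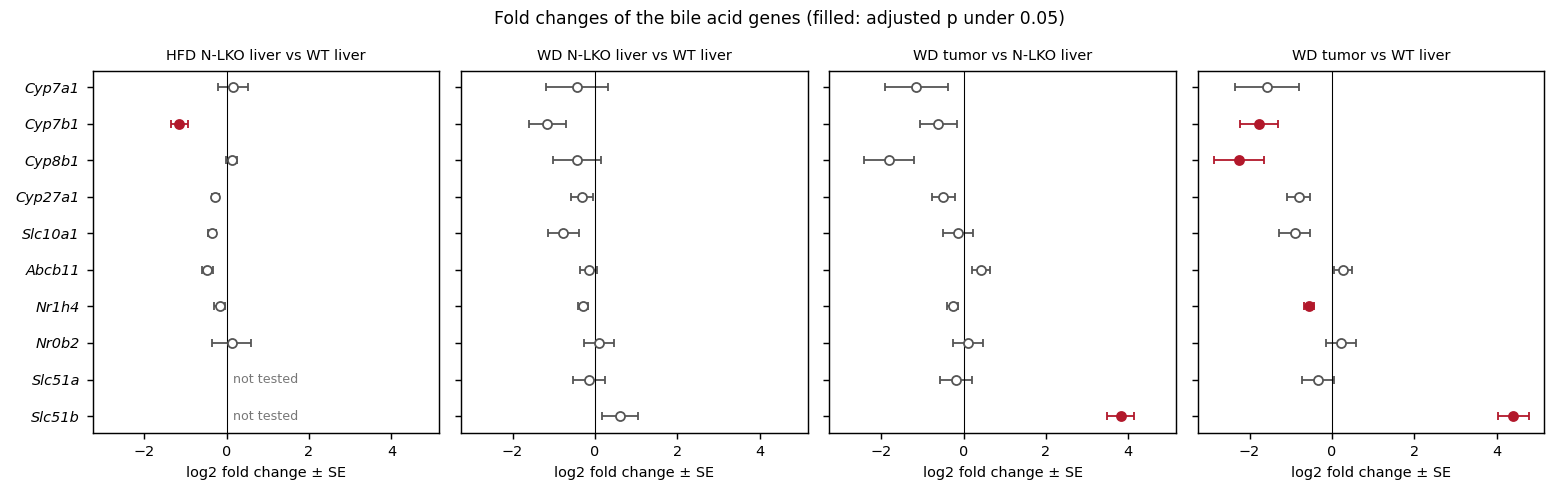
Log2 fold change (x axis, bars ± SE) of the 10 genes in the 4 comparisons, with filled points for adjusted p under 0.05 by edgeR. Cyp7b1 is the single filled point under HFD at −1.15, none is filled for N-LKO against WT liver under WD, and Slc51b stands far to the right in both tumor panels at 3.81 and 4.41.

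Under WD the same genotype comparison rested on 3 livers a group. None of the 10 genes passed, nor did any of the 17829 genes tested (0% called by edgeR, 12.4% at an unadjusted p under 0.05, and 100 genes with the DESeq2 Wald test, which called none of the 10). Nus1, the deleted gene, lay lower in every N-LKO liver and did not pass either (log2 fold change −1.02, SE 0.162, edgeR adjusted p 0.151). Cyp7b1 had nearly the same fold change as under HFD. It stood at 79.6, 204 and 63.9 CPM in WT and at 40.7, 83.5 and 31.2 CPM in N-LKO livers, so the groups overlapped (log2 fold change −1.16, SE 0.452, edgeR adjusted p 0.379). Without WT replicate 2, the liver at 204 CPM, it was −0.47. The test of the difference between diets gave 0.02 (SE 0.537, adjusted p 0.989) and cannot tell the effects apart or show them to be alike.

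For 3 of the 10 genes every N-LKO liver lay below every WT liver under WD, beside 13.6% of all genes, and these were Slc10a1, Cyp27a1 and Nr1h4. Slc10a1 stood at 275, 402 and 350 CPM in WT and at 214, 182 and 207 CPM in N-LKO livers (log2 fold change −0.77, SE 0.368, edgeR adjusted p 0.425). Its coefficient of variation was 54.9% in tumors, whose scatter enters that SE, against 18.7% in WT and 8.27% in N-LKO livers. Slc10a1 was not called in any of the 10 alternative settings, a fit of the 2 groups alone among them. Cyp27a1 stood at 273, 359 and 259 CPM against 241, 248 and 223 CPM (−0.32, SE 0.271, adjusted p 0.619). Nr1h4 stood at 120, 137.8 and 127 CPM against 110, 98.6 and 104.3 CPM (−0.30, SE 0.124, adjusted p 0.386). Of these, Slc10a1 and Cyp27a1 were also without overlap under HFD. The summed hepatocyte markers moved the same way under WD, at 41778 to 51626 CPM in WT and 30119 to 37422 CPM in N-LKO livers, and their part in these values was not tested. In bulk tissue, fewer cells of a type and less RNA per cell cannot be told apart.

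The other genes overlapped between genotypes under WD. Cyp7a1 stood at 103, 101.9 and 148 CPM in WT and at 115.6, 71.3 and 73.0 CPM in N-LKO livers (log2 fold change −0.44, SE 0.759, edgeR adjusted p 0.821). Cyp8b1 stood at 265, 498 and 426 CPM against 189, 416 and 269 CPM (−0.44, SE 0.585, adjusted p 0.760), and Abcb11 at 370, 392 and 268 CPM against 340, 272 and 309 CPM (−0.16, SE 0.211, adjusted p 0.762). Nr0b2 gave 0.10 (SE 0.366, adjusted p 0.922) and Slc51a −0.15 (SE 0.389, adjusted p 0.885). Slc51b had 5, 3 and 3 counts in WT and 5, 9 and 8 in N-LKO livers, a ratio of 1.53 with an exact 95% interval of 0.710 to 3.49. Over the 14 livers none of the 9 genes tested differed in its genotype effect between diets, where 1.62% of 15850 genes did. The lowest p was that of Slc10a1 (difference in log2 fold change, WD minus HFD, −0.39, SE 0.181, edgeR adjusted p 0.246).

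Tumors were then set against N-LKO livers under WD. Of the 10 genes 1 passed, Slc51b, the beta subunit of the basolateral exporter. It stood at 0.244, 0.427 and 0.425 CPM in N-LKO livers, from 5, 9 and 8 counts, and at 5.77, 4.08 and 5.78 CPM in tumors, from 115, 92 and 111 counts. All 3 tumors were far above all livers and close to each other, and 11.5% of all genes were likewise higher in every tumor than in every N-LKO liver. The ratio of pooled counts was 14.1 with an exact 95% interval of 9.18 to 22.9, and the fitted log2 fold change was 3.81 (SE 0.337, edgeR adjusted p 0.00482), where 0.437% of genes were called higher. Slc51b passed the filter on low counts through the tumors alone, so its place among the genes tested itself depended on the tumor level. The call held in each of the 9 fits without 1 library (log2 fold change 3.59 to 3.95, highest adjusted p 0.0466).

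Slc51a, the alpha subunit without which OST does not assemble, did not rise with it. It stood at 0.489, 0.901 and 1.06 CPM in N-LKO livers and at 0.602, 0.666 and 0.885 CPM in tumors, which overlapped (log2 fold change −0.18, SE 0.387, edgeR adjusted p 0.842). The ratio of its pooled counts was 0.879 (exact 95% interval 0.572 to 1.35). These intervals on pooled counts, here and against WT livers, cover counting error only and not the spread between libraries. Its counts were fractional in every library. Slc51a shares 17.7% of its exonic bases with Pcyt1a on the opposite strand, and strand use in counting was not stated. Slc51b shares 12.8% of its exonic bases with Rasl12, also on the opposite strand. Rasl12 stood at no more than 0.703 CPM in any tumor, well under Slc51b.

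Within each library the balance of the subunits shifted, a measure that needs no scaling between libraries. The log2 ratio of Slc51b to Slc51a per exon length was −0.37 to 0.57 in WT livers, 0.82 to 1.14 in N-LKO livers and 4.78 to 5.41 in tumors under WD. Under HFD it ran from −0.35 to 1.31 in WT and from −0.31 to 3.16 in N-LKO livers. The log2 ratio of Slc51b to the uptake carrier Slc10a1 was −9.32 to −8.01 in WT livers, −8.14 to −7.11 in N-LKO livers and −3.93 to −2.56 in tumors. Thus the exporter subunit gained on the uptake carrier in every tumor and still lay below it.

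**Figure D3:**
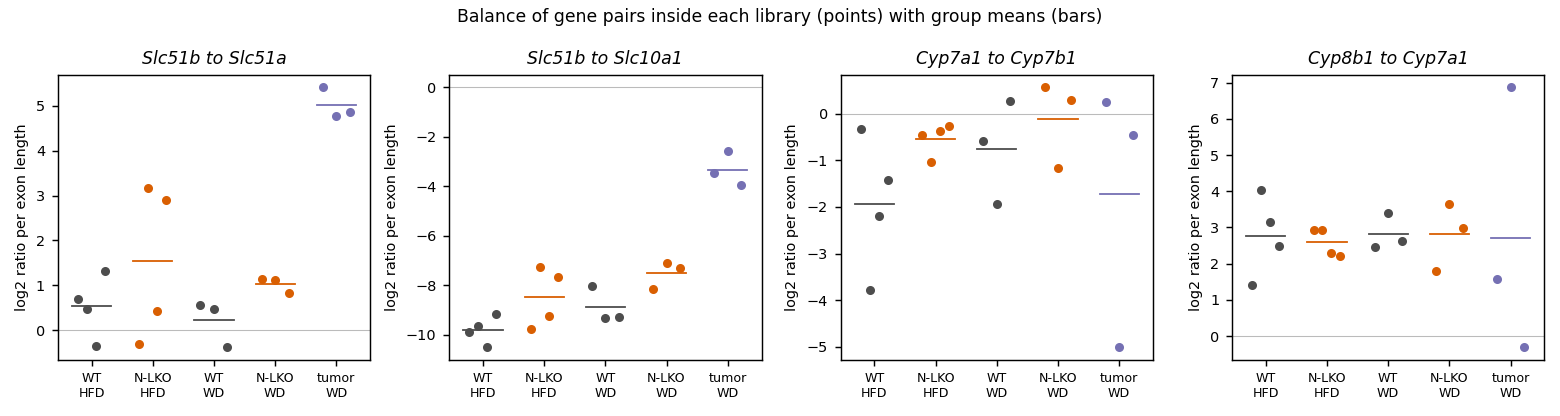
Log2 ratio per exon length (y axis) of 4 gene pairs inside each library, with points for libraries and bars for group means. The ratio of Slc51b to Slc51a lies at 4.78 to 5.41 in tumors and at or below 3.16 in all livers, while the ratio of Cyp7a1 to Cyp7b1 overlaps between all groups.

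Of the further genes, Cyp8b1 stood at 101, 130 and 16.4 CPM in tumors and at 189, 416 and 269 CPM in N-LKO livers (log2 fold change −1.82, SE 0.603, edgeR adjusted p 0.162). Every tumor was below every N-LKO liver, which in that direction held for 2 of the 10 genes and for 11.6% of all genes. The other was Nr1h4, at 83.2, 81.0 and 95.5 CPM in tumors and 110, 98.6 and 104.3 CPM in N-LKO livers (−0.27, SE 0.124, adjusted p 0.291). Abcb11 stood at 372, 338 and 528 CPM in tumors against 340, 272 and 309 CPM (0.43, SE 0.212, adjusted p 0.318). The canalicular pump was not called in tumors in either direction, and the remaining genes overlapped, with log2 fold changes of −1.15 (SE 0.770) for Cyp7a1, −0.61 (SE 0.451) for Cyp7b1, −0.49 (SE 0.271) for Cyp27a1, −0.14 (SE 0.366) for Slc10a1 and 0.12 (SE 0.363) for Nr0b2.

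Against WT livers, 4 of the 10 genes passed in tumors, 1 higher and 3 lower, beside 8.08% of all genes called higher and 6.8% called lower. This comparison shares its tumors with the one before and differs from it in genotype as well as tissue. Slc51b was again the largest change, at 0.343, 0.203 and 0.179 CPM in WT livers (ratio of pooled counts 21.6, exact 95% interval 11.9 to 43.7, log2 fold change 4.41, SE 0.369, edgeR adjusted p 0.00124). Cyp8b1 was lower, at 101, 130 and 16.4 CPM in tumors and 265, 498 and 426 CPM in WT livers (−2.26, SE 0.612, adjusted p 0.0360). Cyp7b1 was lower, at 31.4, 39.6 and 30.5 CPM in tumors and 79.6, 204 and 63.9 CPM in WT livers (−1.77, SE 0.461, adjusted p 0.0320). Nr1h4 was lower by less, from 120, 137.8 and 127 CPM to 83.2, 81.0 and 95.5 CPM (−0.56, SE 0.125, adjusted p 0.0194). The groups overlapped for none of these genes.

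Of these 4 calls, that of Slc51b was kept in all 9 fits without 1 library and the others were not. Here too Slc51b was among the genes tested through the tumors alone. Cyp7b1 was lost without any 1 tumor (adjusted p 0.0558, 0.0591 and 0.0742 without tumor replicates 1, 2 and 3) and without WT replicate 2 (log2 fold change −1.08, adjusted p 0.113). Cyp8b1 was lost without any 1 WT liver (0.0567, 0.111 and 0.0741 without replicates 1, 2 and 3) and without N-LKO liver replicate 3 (0.0588). Nr1h4 was lost without WT replicate 2 (0.0681). A fit of tumors and WT livers alone, without the N-LKO livers, kept Slc51b and none of the other 3 genes.

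Cyp7a1, Cyp27a1 and Slc10a1 were below every WT liver in every tumor and did not pass. With Cyp7b1, Cyp8b1 and Nr1h4 this made 6 of the 10 genes, beside 16.4% of all genes. Cyp7a1 stood at 72.0, 2.40 and 43.1 CPM in tumors, with its transcript lowest in tumor replicate 2 (log2 fold change −1.58, SE 0.778, edgeR adjusted p 0.188). Cyp27a1 stood at 183, 96.2 and 228 CPM in tumors (−0.81, SE 0.272, adjusted p 0.0710, and 0.0211 with DESeq2) and Slc10a1 at 200, 74.9 and 273 CPM (−0.91, SE 0.369, adjusted p 0.119). Tumor replicate 2 was the lowest of the 3 for these genes. Without tumor replicate 3 both Cyp27a1 and Slc10a1 passed (adjusted p 0.0356 and 0.0469). The fits without 1 library called 3.07% to 20.9% of all genes. Abcb11 (0.27, SE 0.212, adjusted p 0.408), Nr0b2 (0.22, SE 0.366, adjusted p 0.712) and Slc51a (−0.34, SE 0.393, adjusted p 0.582) overlapped between tumors and WT livers.

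Summed marker genes of some zones and cell types, but not of all, differed between tumors and livers. The pericentral hepatocyte genes Glul, Cyp2e1, Cyp1a2, Oat and Axin2, which mark the zone around the central vein where Cyp7a1 is also known to be strongest, summed to 10064 to 14282 CPM in WT livers, 7828 to 8178 CPM in N-LKO livers and 414 to 4954 CPM in tumors. The periportal genes Cyp2f2, Hal, Sds, Pck1 and Hsd17b13 overlapped in sum between tumors (1912 to 3165 CPM) and N-LKO livers (2183 to 2619 CPM). Their sum was 3300 to 6771 CPM in WT livers. The bile duct genes Krt7, Krt19, Epcam, Sox9, Spp1 and Cftr summed to 17.8 to 70.1 CPM in WT livers, 115.5 to 153 CPM in N-LKO livers and 195 to 523 CPM in tumors, and under HFD to 20.4 to 38.8 CPM in WT and 54.9 to 100 CPM in N-LKO livers. Spp1 made up most of the sum in tumors. The median log2 fold change over the 6 genes in tumors was −0.84 against N-LKO livers, opposite in sign to the sum. Against WT livers it was 0.49. Of the 6 genes, Sox9 was called higher in tumors against N-LKO livers (log2 fold change 1.90, SE 0.312, edgeR adjusted p 0.0355), and Sox9 and Spp1 against WT livers (2.67, SE 0.327, adjusted p 0.00529, and 2.88, SE 0.626, adjusted p 0.0187). In the 3 tumors Spp1 stood at 347, 132 and 489 CPM and Sox9 at 22.1, 62.0 and 33.6 CPM. The other 4 genes were not called, with Krt7 at 0.653, 0.488 and 0.0520 CPM, Krt19 at 1.20, 0.177 and 0.0520 CPM, Epcam at 3.36, 0.0887 and 0.104 CPM and Cftr at 2.06, 0.177 and 0.156 CPM. The part of bile duct cells in the Slc51b values was not tested. Of the intestinal genes, Cdx2 was listed in neither table, Fabp2 stood at 43.0 to 101.7 CPM in tumors and 107 to 119 CPM in N-LKO livers, and Vil1 ranged from 0.552 to 172 CPM in tumors. Over the 4 intestinal genes tested, log2 fold changes in tumors ran from −0.70 to 7.23 against N-LKO livers, and none was called. Against WT livers they ran from −0.92 to 9.67, with 1 called higher and 1 lower, beside 8.08% and 6.8% of all genes. The part of zonation and of intestinal gene expression in these values was not tested.

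**Figure D4:**
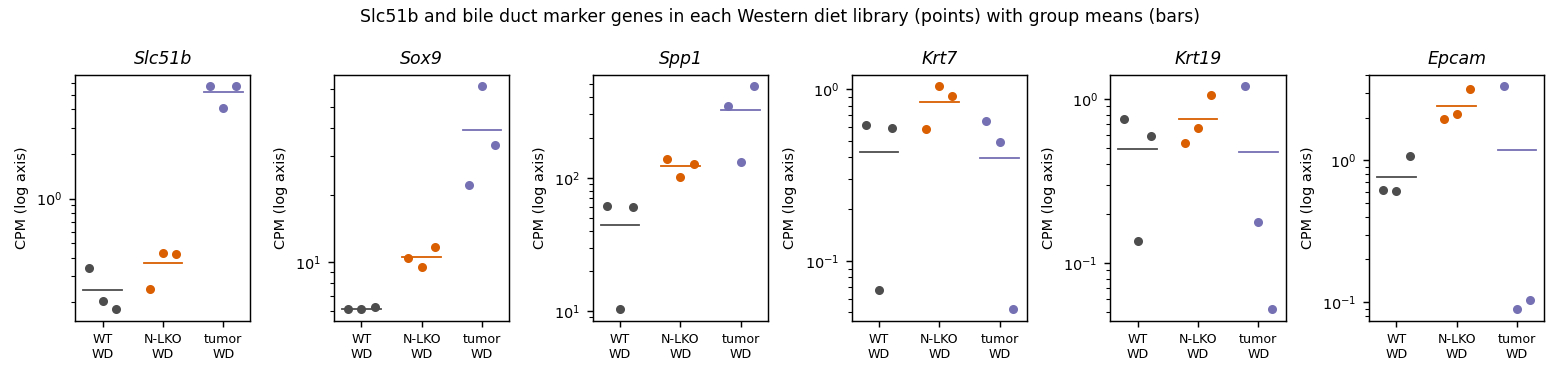
Slc51b and 5 bile duct marker genes in CPM (log axis, own range per panel) in the 9 WD libraries, with points for libraries and bars for group means. In the 3 tumors Slc51b stands at 4.08 to 5.78 CPM, Epcam at 3.36, 0.0887 and 0.104 CPM and Krt19 at 1.20, 0.177 and 0.0520 CPM.

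Other genes of the pathway were taken from lists of further synthesis enzymes, transporters, regulators and detoxification genes. Under HFD none of 16 further synthesis enzymes passed, and the lowest unadjusted p was that of Cyp2c70, a murine muricholic acid enzyme (log2 fold change −0.67, edgeR adjusted p 0.126). Of 16 further transporters 2 were lower and none higher, where 2.29% of all genes were called lower. Slco1a1, a sinusoidal organic anion carrier, fell from 115 to 318 CPM in WT to 15.1 to 75.4 CPM in N-LKO livers (−2.44, SE 0.473, adjusted p 0.0180), and Slc10a5, an orphan relative of Slc10a1, from 33.7 to 45.6 CPM to 27.2 to 28.9 CPM (−0.52, SE 0.102, adjusted p 0.0180). Both were lost without N-LKO replicate 1 or 3 or WT replicate 2. The median log2 fold change was −0.20 over these transporters, −0.01 over the synthesis enzymes and −0.01 over all genes.

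Of 13 regulators under HFD 2 were lower, beside 2.29% of all genes, among them Klb, the co-receptor for the gut hormone Fgf15 (log2 fold change −0.56, SE 0.112, edgeR adjusted p 0.0196). Klb was lost in 5 of the 8 fits without 1 library. Of 4 detoxification genes tested 1 was lower, beside the same 2.29%, the bile acid sulfotransferase Sult2a8, at 769 to 981 CPM in WT and 509 to 622 CPM in N-LKO livers (−0.66, SE 0.104, adjusted p 0.010), and it passed in all 8 such fits. None of 11 clock genes passed, with Clock at −0.46 (adjusted p 0.136).

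Under WD none of these lists held a gene called by edgeR between N-LKO and WT livers or between tumors and N-LKO livers. The lowest p in each list for N-LKO against WT liver were those of Cyp46a1 (log2 fold change −1.51), Abcb1a (1.02), Rxra (−0.70), Ugt1a1 (−0.52) and Arntl (1.09), with edgeR adjusted p from 0.353 to 0.392. Of these, DESeq2 called Cyp46a1 (adjusted p 0.0486), beside 0.561% of all genes. Between tumors and N-LKO livers they were those of Akr1d1, the bile acid ring reductase (1.85, adjusted p 0.0775), Abcb1a (2.21, adjusted p 0.0614), Nr1i3 (−1.23, adjusted p 0.104), Cyp2b10 (4.48, adjusted p 0.206, resting on 18.01 CPM in 1 tumor) and Cry1 (1.17, adjusted p 0.124). DESeq2 called Akr1d1, Abcb1a, Nr1i3 and Cry1, and so did the fit without tumor replicate 1. The share of all genes called was 0.499% in the main fit and 5.73% with DESeq2. It ran from 0.0164% to 11.99% over the fits without 1 library. Abcb1a also passed with the length and GC correction, in the fit of the 2 groups alone and without WT replicate 2.

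Between tumors and WT livers 7 of 16 further synthesis enzymes were lower and none higher, where 6.8% of all genes were called lower and 8.08% higher. The largest falls were those of the cholesterol hydroxylase Cyp46a1 (log2 fold change −2.44, SE 0.413, edgeR adjusted p 0.00957), the peroxisomal thioesterase Acot8 (−1.36, SE 0.228, adjusted p 0.00957) and the side-chain thiolase Scp2 (−1.0, SE 0.275, adjusted p 0.0379). Of 16 transporters 2 were higher and 1 lower, against the same shares of all genes. Abcb1a, a multidrug pump of the canalicular membrane, rose from 2.64 to 11.9 CPM to 47.8 to 90.7 CPM (3.23, SE 0.461, adjusted p 0.00709), and Abcc4, a basolateral exporter that also carries bile acids, from 4.00 to 10.01 CPM to 11.1 to 60.9 CPM (2.11, SE 0.567, adjusted p 0.0349). The uptake carrier Slco2b1 fell (−1.02, SE 0.234, adjusted p 0.0220). Of 13 regulators 6 were lower, beside 6.8% of all genes, among them Nr1i3, the receptor CAR (−1.82), Rxra, the shared partner of FXR and CAR (−1.20), Hnf4a (−0.75), Fgfr4 (−0.59) and Nr1h3 (−0.56). None of the 5 detoxification genes passed, with Sult2a8 at −2.51 (adjusted p 0.0518). Cyp46a1, Acot8, Abcb1a, Nr1i3 and Rxra passed in all 9 fits without 1 library, while Scp2 and Fgfr4 passed in 1 of the 9, Abcc4 in 2, Hnf4a in 6, Nr1h3 in 7 and Slco2b1 in 8. These last 6 all missed the threshold without WT replicate 2.

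**Figure D5:**
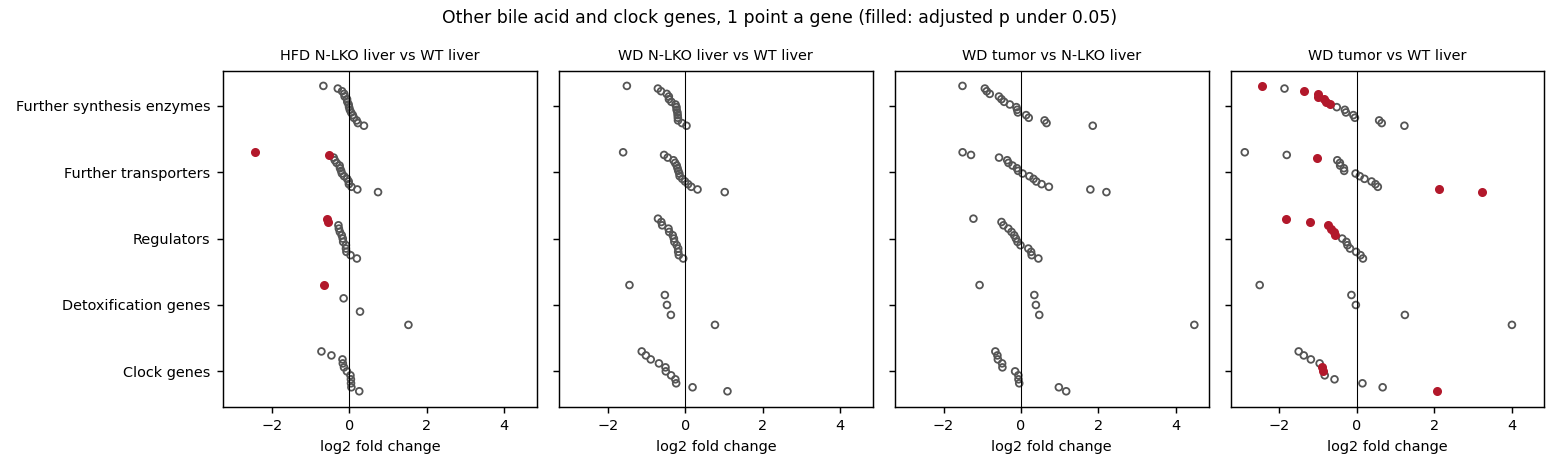
Log2 fold change (x axis) of the further synthesis enzymes, transporters, regulators, detoxification and clock genes in the 4 comparisons, with 1 point per gene tested and filled points for adjusted p under 0.05 by edgeR. Tumors against WT livers hold 7 filled synthesis enzymes and 6 filled regulators to the left of zero, and the other WD panels hold none.

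Clock genes were read beside Cyp7a1 because its transcript follows the daily rhythm. Between tumors and WT livers 3 of 11 passed, 1 higher and 2 lower, where 8.08% of all genes were called higher and 6.8% lower. Arntl stood at 9.79, 21.0 and 10.04 CPM in tumors and at 3.09, 3.05 and 3.57 CPM in WT livers (log2 fold change 2.07, SE 0.308, edgeR adjusted p 0.00782), with N-LKO livers between at 6.11, 8.15 and 6.48 CPM. Nr1d1 (−0.89, adjusted p 0.0470) and Nr1d2 (−0.86, adjusted p 0.050) were lower and were lost in 8 and 7 of the 9 fits without 1 library. Tumor replicate 2, which had the least Cyp7a1, had the most Arntl. The part of sampling time in the Cyp7a1 values was not tested.

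The genes whose pattern over the 17 libraries was closest to a member were sought for Cyp7a1 and Slc51b, by the root mean square difference of log2 CPM after centring each gene within its table. For Cyp7a1, whose own spread by that measure was 1.30, the closest were led by Acss3 (0.517) and also held Mbl2 (0.582) among 9189 genes. In tumor replicate 2 these genes stood at 0.887 and 2.71 CPM, as low as Cyp7a1 there. For Slc51b, with a spread of 1.36, they were Gsta2 (0.657), Slc39a4 (0.732) and Snhg11 (0.760) among 9190 genes, and all 3 were higher in each tumor than in each liver. The genes near Cyp7a1 and near Slc51b were picked over these same libraries, so the highs and lows they share are no separate result.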

How the data were processed

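RNA-seq of 17 mouse samples was read from the estimated counts per gene that the authors deposited, 1 table per diet, made with Partek's expectation-maximization quantification, which leaves part of the values fractional. The submitters' processing notes name STAR, Partek and mm9, the study's methods name another aligner, and gene positions in the tables matched GRCm38. The counts were rounded and fitted in R 4.3.3 with edgeR 4.0.16 (TMM scaling, filterByExpr, quasi-likelihood F test, Benjamini-Hochberg threshold 0.05), HFD alone, the 3 WD groups together, and the 14 livers for the difference between diets. CPM used TMM-scaled library sizes and RPKM the merged exon length. A count of 3 corresponded to 0.239 to 0.333 CPM under HFD and 0.133 to 0.206 under WD.

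The member genes and lists were chosen with earlier results of these data known. All members are named, and of the wider lists each gene called or, where more than 6 were called, the 3 that rose most and the 3 that fell most, or, with none called, the gene of lowest p. Some genes that this rule or the likeness measure picked are not reported here. Marker genes, neighbours and the library counts of Slc51b were chosen for the results they touch. Libraries of a group differed by more than sampling noise (chi-square per degree of freedom 8.74 to 116). Alternatives were DESeq2 1.42.0, limma-voom 3.58.1, other scalings and filters, a replicate block, a length and GC offset (mgcv 1.9.3), fits of the 2 groups alone and leaving out each library. Fits were tested on simulated data. Versions of the authors' tools are not given in the sources used here.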

Additional observations from a re-analysis of the deposited data

Results flagged for a closer look

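Among the genes named, the genotype effect on Arntl, a core clock gene, differed between the HFD livers and the WD livers. The effect under WD minus that under HFD was 1.83 on the log2 scale (SE 0.412, edgeR quasi-likelihood adjusted p 0.0388). Under HFD, Arntl stood at 1.35, 2.77, 3.88 and 1.83 CPM in WT livers and at 1.24, 2.06, 1.52 and 1.12 CPM in N-LKO livers. Under WD it stood at 3.05 to 3.57 CPM in WT livers and at 6.11 to 8.15 CPM in N-LKO livers. Arntl was not called between genotypes under WD (log2 fold change 1.09, SE 0.307, edgeR adjusted p 0.353). The livers of each diet were counted in a table of their own. An effect of diet on Arntl was therefore not separable from any other difference between these sets of livers. The hour at which the tissue was taken is not given for either set. The part of sampling time in the Arntl values was not tested. The WD minus HFD difference ranged from 1.54 to 2.04 in the 14 fits without 1 library and missed the threshold in 10 of them, with adjusted p between 0.0367 and 0.0961 over all of them. It also missed the threshold in 3 of 9 other settings, at 1.78 with the replicate block (adjusted p 0.0701), 1.69 with the length and GC correction (adjusted p 0.0880) and 1.64 with both (adjusted p 0.131).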

How the results depend on the processing

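Slc51b was called higher in tumors in both comparisons under all alternatives run. It had passed the main filter on low counts through the tumors alone, so these calls are not separate from its tumor level. Of the values for single genes, 757 of 813 under other settings and 691 of 820 without 1 library kept their direction and side of the threshold. In the other cases the cause was not tested. The share of genes called under HFD was 4.84%, and 7.43% with DESeq2, 1.93% with the length and GC correction, 1.03% with that correction and the replicate block, and 1.31% to 4.35% without 1 library. The member genes called there were 1, and 4 with DESeq2, 2 with the correction and 0 to 2 without 1 library. For N-LKO against WT liver under WD it was 0%, and 0.561% with DESeq2, 0.0356% with the 2 groups alone and 0% to 0.00549% without 1 library. For tumors against N-LKO livers it was 0.499%, and 0.376% with a filter at a mean of 1 CPM, 5.73% with DESeq2, 0.101% with limma-voom, 0.202% with the replicate block, 0.308% with the block and the correction, 0.165% with the 2 groups alone and 0.0164% to 11.99% without 1 library. For tumors against WT livers it was 14.9%, and 4.12% with the 2 groups alone and 3.07% to 20.9% without 1 library, and of the member genes 4 were called, and 1 with the 2 groups alone and 1 to 5 without 1 library. For the difference between diets it was 1.62%, and 6.19% with DESeq2, 0% with the replicate block, 0.00631% with the correction, 0% with both and 0.137% to 2.04% without 1 library.

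Signs that turned all belonged to small effects or to 1 library. Nr0b2 under HFD was −0.0090 with the length and GC correction and −0.036 with the block added. For the difference between diets, Cyp27a1 was 0.0032 with upper-quartile scaling, 0.075 with the correction and 0.090 with the block added, Nr0b2 was −0.0048 with no filter, and Cyp7b1 was −0.14 with the correction and −0.13 with the block added. Without 1 library, log2 fold changes under HFD ran from −0.13 to 0.59 for Cyp7a1 and from −0.30 to 0.41 for Nr0b2. For N-LKO against WT liver under WD they ran from −0.10 to 0.51 for Nr0b2 and from −0.38 to 0.11 for Slc51a. For tumors against N-LKO livers they ran from −0.55 to 0.23 for Slc10a1, from −0.37 to 0.36 for Nr0b2, from −0.45 to 0.039 for Slc51a and from −1.11 to 5.51 for Cyp2b10, and against WT livers from −0.29 to 0.62 for Nr0b2. For the difference between diets they ran from −0.51 to 0.68 for Cyp7b1, from −0.11 to 0.11 for Cyp27a1, from −0.29 to 0.42 for Nr0b2 and from −0.35 to 0.14 for Slc51a.

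Same-numbered libraries of different groups did not deviate together (correlations from −0.08 to 0.11 over 4 pairs under HFD and from −0.12 to 0.10 over 9 under WD), so the replicate numbers were not taken as pairs. That check used the replicate numbers of the sample titles and does not settle whether a tumor and a liver came from the same animal. Depth limits what can be said of Slc51a and Slc51b in liver, where a few counts decide a ratio.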
